A study of Mus musculus with 10 samples.

Results

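Genes that build and hold the identity of group 2 innate lymphoid cells (ILC2) were followed in lung ILC2 with and without c-Maf: Gata3, Rora, Bcl11b, Gfi1, Ets1, Id2, Tox, Nfil3 and Zbtb16. They were chosen by name, and all 9 were found among the 54838 genes of the deposited count table. The cells came from the lungs of C57BL/6 mice with papain-induced inflammation, and were sorted as lineage-negative, CD90.2-positive cells with or without ST2 and KLRG1. There were 5 wild type (WT) libraries and 5 libraries of c-Maf knockout (KO) mice, numbered here in the order of deposit, with WT and KO animals kept together as littermates. The labels used here state neither the age of the mice and the papain schedule nor the deleted part of Maf and the cells that lost it. Nor do they say that each library is a separate mouse, and the p-values reflect spread among libraries, which may be technical. Each library title carries its own number, and all WT numbers are lower than all KO numbers. What the numbers stand for is not stated, and genotype cannot be told apart from whatever they order.

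ILC2 arise from lymphoid progenitors that give up the B and T cell fates. ID2 binds and blocks the E proteins that drive those fates, NFIL3 and TOX act early in the common innate progenitor, and PLZF, the product of Zbtb16, marks the precursor stage that follows. GATA3 and RORA then set the ILC2 fate, while BCL11B, GFI1 and ETS1 hold it in mature cells. Of these, GATA3 acts on the type 2 cytokine locus and on the gene of the IL-33 receptor.

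Maf is a basic leucine zipper factor that binds a palindrome whose outer arms read TGCTGA, so the start regions of the factors were searched for it. RefSeq (GRCm38.p6) gave 7 windows of 250 bases before to 50 bases after a start site, for Gata3, Rora, Bcl11b, Gfi1, Id2 and Nfil3. This arm was found on either strand in 2 of the 7 windows, against 19.5% of 32851 windows of all genes. The whole palindromes, T-MARE and C-MARE, were found in 0 of the 7, and in only 1 and 0 of the 32851 windows of all genes. At that rarity their absence from 7 windows says nothing about the factors. GATAA, a core of GATA sites, was found in 0 of the 7 against 25.4% of all windows. AGGTCA, the core bound by RORA, was found in 1 of the 7 against 16.3%. The matches are shown in capitals, 5′ to 3′ on the strand of the gene, to show which letters were found and where. All motifs were searched on both strands. A match describes letters and not binding.
Gata3, chr2:9878673-9878702, minus strand, match from base −90: gcagtttccttgTGCTGAggatcgtgtccc
Gfi1, chr5:107725930-107725959, minus strand, match from base −142: cgaaggtaggttTGCTGAactgctgtgcct
Nfil3, chr13:52981034-52981063, minus strand, match to AGGTCA on the opposite strand from base −12: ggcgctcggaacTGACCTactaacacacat

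The libraries of the groups differed in depth and in how many genes they held. WT libraries totalled 21400938 to 24489987 counts over 10577 to 12744 genes, and KO libraries 3620002 to 9867580 counts over 4052 to 7660 genes. The TMM scaling factors, which edgeR sets from the bulk of genes, ran from 1.462 to 1.908 for WT and from 0.1803 to 0.9276 for KO, without overlap. Levels per library are therefore given as CPM, counts scaled to a common library total, and each test and its fold change on the TMM scale. Of 7490 genes tested with edgeR, 27.1% were lower and 1.5% higher in KO. The filter on low counts asks for counts in at least 5 libraries, which the 5 WT libraries can meet alone. A gene absent from WT and high in only some KO libraries is left out, so both shares depend on the filter. Without it 3024 of 19014 genes were lower and 2345 higher. Of the tested genes, 51.2% were all but missing (3 counts or fewer) from 4 or 5 KO libraries, and 529 (7.06%) had more than 3 counts in every KO library. Maf had 1412 to 3832 counts in the WT libraries and 0, 0, 0, 108 and 0 in KO libraries 1 to 5 (log2 fold change −4.34, SE 2.06, edgeR adjusted p = 0.141). KO library 4 thus held Maf transcripts. Without it 0 of the 9 factors passed with edgeR, where 37.8% of all genes were lower and 3.41% higher. At an unadjusted p under 0.05 there was then 1, Rora, beside 49% of all genes.

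None of the factors passed the edgeR test between the groups. Of the 9, 8 were tested and 0 were lower and 0 higher at an adjusted p of 0.05 (edgeR quasi-likelihood test, Benjamini-Hochberg over 7490 genes), against the 27.1% and 1.5% of all tested genes. At an unadjusted p under 0.05 the count was 0 of 8 with edgeR, 2 with DESeq2 (Gata3 and Rora) and 1 with limma voom (Id2), where 35.5%, 36% and 45.8% of all genes were under it. After adjustment DESeq2 called 1 (Rora, higher, as were 13.5% of all genes, with 23.3% lower). An exact permutation test of each gene called 1 (Id2, lower, as were 32.2%, with 0.975% higher), and voom called 0, against 33.2% of all genes lower and 0.948% higher. The median log2 fold change of the 8 was 0.71, beside −0.47 for all tested genes. The spread among KO libraries was wide, with standard errors of 0.97 to 2.17 on the log2 scale, and the missed tests do not show that any factor was unchanged. In such bulk samples, fewer cells of a type and less RNA per cell cannot be told apart.

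**Figure D1:**
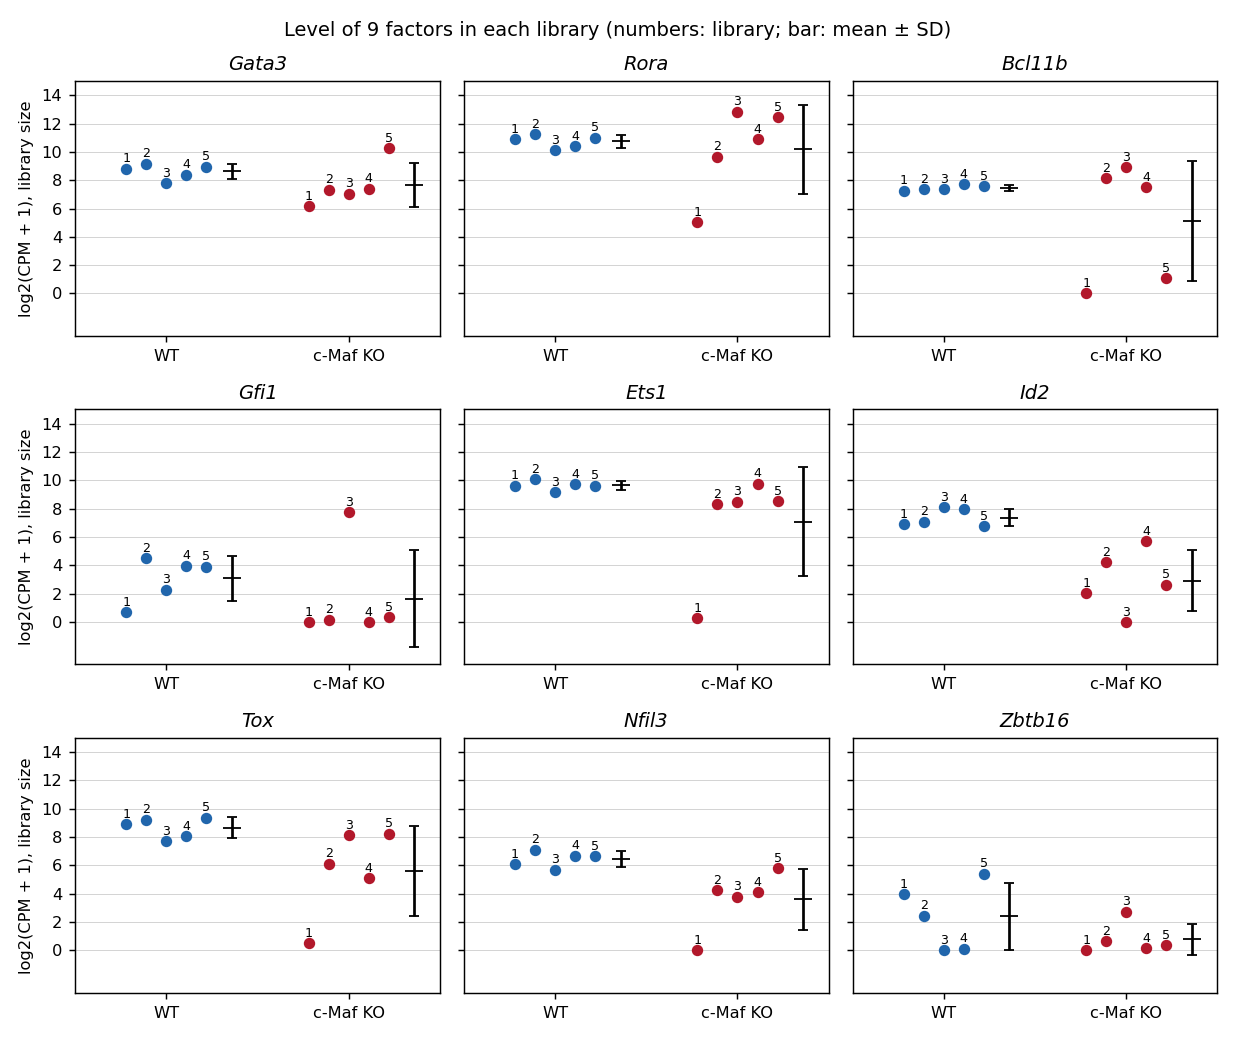
Level of each factor in every library as log2(CPM + 1), scaled to the library total, with WT libraries in blue and c-Maf KO libraries in red, the library number beside each point, and the mean ± SD (n = 5) in black. The WT points of Bcl11b lie close together while the KO points run from 0 to 483 CPM, and all KO points of Id2 lie below all WT points.

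Gata3 encodes the zinc finger factor that ILC2 and T helper 2 cells share. It lies on GRCm38 chromosome 2, 9857078 to 9890034, minus strand (ENSMUSG00000015619). Its level was 447, 578, 217, 333 and 497 CPM in WT libraries 1 to 5, and 70.8, 160, 130, 169 and 1240 CPM in KO libraries 1 to 5. Per library total, 4 of 5 KO libraries were below every WT library, and KO library 5 was above every one. That library held 49.5% of the KO counts of Gata3. On the TMM scale the group means were 241 ± 79.1 CPM for WT and 595 ± 772 CPM for KO (SD, n = 5 each), and 0 KO libraries were then below every WT library. The log2 fold change was 1.30 (SE 1.14, edgeR adjusted p = 0.463). It was −0.12 with library size alone and −0.30 without KO libraries 1 and 5 together. Without KO library 5 alone it stayed positive, at 0.34. Gata3 was present in every KO library, with 337 to 4490 counts, as were 42.2% of the 403 tested genes at 200 to 500 CPM in WT. Of its 3978 exon bases, 1023 lie inside the spans of neighbouring genes, where reads may not have been counted.

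Rora encodes the nuclear receptor that ILC2 need to develop. It lies on chromosome 9, 68653786 to 69388246, plus strand (ENSMUSG00000032238), and had the highest WT level of the factors per kilobase of exon. Its level was 1880, 2460, 1120, 1370 and 2060 CPM in WT libraries 1 to 5, and 31.5, 814, 7300, 1920 and 5530 CPM in KO libraries 1 to 5. KO libraries 3 and 5 were above every WT library and KO libraries 1 and 2 below every one. On the TMM scale 3 were above and 1 below, and the means were 1040 ± 299 CPM for WT and 4280 ± 4140 CPM for KO (SD, n = 5 each). The log2 fold change was 2.05 (SE 0.97, edgeR adjusted p = 0.141), positive under each of the 20 alternatives. It passed with DESeq2 (2.63, adjusted p = 0.0304), without KO library 1 (2.52, edgeR adjusted p = 0.00874) and without KO libraries 1 and 5 (1.94, edgeR adjusted p = 0.028). In the latter fits 3.72% and 3.53% of all genes were higher, and 33.7% and 33.4% lower. Over the alternatives that do not leave out a single library its adjusted p ran from 0.028 to 0.566. Genes spanning over 300 kb, such as Rora at 734 kb, had a median log2 fold change of 2.64 (245 tested genes, 23.3% higher and 2.04% lower), which is above the value of Rora. The part of gene span in the value of Rora was not tested.

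Bcl11b encodes a zinc finger factor that keeps ILC2 from turning to other lineages (chromosome 12, 107910403 to 108003602, minus strand). It had the most even WT level of the 9 on the TMM scale, with a coefficient of variation of 7.19%. Its level was 152, 165, 162, 207 and 189 CPM in WT libraries 1 to 5, and 0, 283, 483, 182 and 1.10 CPM in KO libraries 1 to 5. KO libraries 2 and 3 were above every WT library, KO library 4 lay inside the WT range, and KO libraries 1 and 5 held 0 and 4 counts. TMM scaling put 3 above and 2 below every WT library. A count of 0 in KO library 1 allows up to 0.631 CPM by depth alone. Of the 719 tested genes at 100 to 200 CPM in WT, 69.7% had at most 3 counts in KO library 1, and 33.5% in KO library 5. TMM-scaled means were 102 ± 7.34 CPM for WT and 243 ± 248 CPM for KO (SD, n = 5 each), with a log2 fold change of 1.25 (SE 1.56, edgeR adjusted p = 0.617). The sign was negative with voom and in the permutation test, at −2.06 and −1.24. Both tests work on the log values of each library.

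Gfi1 encodes a zinc finger repressor that sustains the response of ILC2 to IL-33 (chromosome 5, 107716657 to 107726036, minus strand). It was weak and uneven in WT, with 15, 533, 82, 358 and 325 counts, or 0.623, 21.8, 3.83, 14.8 and 13.9 CPM, in WT libraries 1 to 5. KO libraries 1 to 5 held 0, 1, 1871, 0 and 1 counts, so that KO library 3, at 216 CPM, gave 99.9% of the KO counts. KO library 3 was above every WT library and 4 of 5 KO libraries were below every one per library total, or 3 of 5 on the TMM scale. Of the 2977 tested genes under 20 CPM in WT, 74.2% were likewise missing from 4 or 5 KO libraries. The log2 fold change of 3.09 (SE 2.17, edgeR adjusted p = 0.345) became −5.19 without KO library 3 (edgeR adjusted p = 0.017), with 37.9% of all genes lower and 3.09% higher in that fit. Over the alternatives that do not leave out a single library the adjusted p of Gfi1 ran from 0.161 to 0.833.

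Ets1 encodes an ETS domain factor that ILC2 need for their expansion (chromosome 9, 32636221 to 32757820, plus strand). Its level was 787, 1080, 568, 848 and 785 CPM in WT libraries 1 to 5, and 0.21, 320, 357, 870 and 364 CPM in KO libraries 1 to 5. Per library total 4 of 5 KO libraries were below every WT library, while KO library 4 lay within the WT range. On the TMM scale 1 KO library was below every WT library and KO library 4, at 1220 CPM, was above every one. KO library 1 held 1 count, and 20.9% of the 110 tested genes at 500 to 1000 CPM in WT had at most 3 counts there. On the TMM scale the means were 473 ± 91.7 and 532 ± 443 CPM (SD, n = 5 each) and the log2 fold change was 0.17 (SE 1.22, edgeR adjusted p = 0.943). With library size alone it was −1.03.

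Id2 encodes a helix-loop-helix protein without a DNA-binding region, which holds E proteins off DNA (chromosome 12, 25093799 to 25097140, minus strand). It had the lowest log2 fold change of the 8 tested factors. Its level was 120, 135, 277, 247 and 107 CPM in WT libraries 1 to 5, and 3.15, 17.5, 0, 51.7 and 5.25 CPM in KO libraries 1 to 5. Per library total, every KO library was below every WT library, as for 37.1% of all tested genes. On the TMM scale 4 of 5 were, and KO library 4 lay inside the WT range, where complete separation was seen for 28.9% of genes. TMM-scaled means were 105 ± 49.6 CPM for WT and 24.5 ± 28.4 CPM for KO (SD, n = 5 each). The log2 fold change was −2.09 (SE 1.6, edgeR adjusted p = 0.391) and stayed negative under each of the 20 alternatives, from −3.48 to −1.34. Permuting the 10 libraries exactly, 2-sided, on TMM-scaled log2(CPM + 1), gave p = 0.0159 and an adjusted p of 0.0478 over all 7490 genes, a threshold that 32.2% of genes passed as lower. Over the alternatives that do not leave out a single library its adjusted p ran from 0.0478 to 0.548. Id2 spans 3.34 kb, the shortest of the 9, and the quartile of tested genes with the shortest spans, up to 14.1 kb, had a median log2 fold change of −1.08. The part of span in the low KO counts of Id2 was not tested.

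Tox encodes a high mobility group factor of early innate progenitors (chromosome 4, 6686353 to 6991557, minus strand). Its level was 484, 595, 210, 269 and 660 CPM in WT libraries 1 to 5, and 0.42, 68.8, 277, 33.0 and 301 CPM in KO libraries 1 to 5. KO libraries 3 and 5 lay inside the WT range and the other KO libraries below it. With TMM scaling 1 KO library was above every WT library and 3 were below. TMM-scaled means were 258 ± 109 and 190 ± 204 CPM (SD, n = 5 each), with a log2 fold change of −0.44 (SE 1.32, edgeR adjusted p = 0.848) that turned positive with RLE size factors (0.29), DESeq2 (0.21) and without KO library 1 or 4 (0.09 and 0.04).

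Nfil3 encodes a basic leucine zipper repressor that innate progenitors need (chromosome 13, 52967209 to 52981073, minus strand). Its level was 66.8, 138, 50.8, 103 and 100 CPM in WT libraries 1 to 5, and 0, 18.2, 12.9, 16.5 and 54.7 CPM in KO libraries 1 to 5. Here too 4 of 5 KO libraries were below every WT library, and KO library 5 was just above the lowest. With TMM scaling KO library 5 was above every WT library. Nfil3 was missing from 1 KO library only, as were 14% of the 1168 tested genes at 50 to 100 CPM in WT, while 96.8% were missing from at least 1. TMM-scaled means were 52.5 ± 15.5 and 30 ± 33.2 CPM (SD, n = 5 each), with a log2 fold change of −0.80 (SE 1.48, edgeR adjusted p = 0.747), negative under each of the 20 alternatives.

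Zbtb16, the gene of the precursor factor PLZF, was too sparse for the test (chromosome 9, 48654297 to 48836222, minus strand). WT libraries 1 to 5 held 356, 110, 0, 2 and 984 counts, and KO libraries 1 to 5 held 0, 5, 49, 1 and 1. Its highest level was 42.1 CPM, in WT library 5, and the WT and KO ranges overlapped. When no filter on low counts was applied its log2 fold change was −2.39 (SE 1.78, edgeR adjusted p = 0.298).

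The WT libraries differed among themselves in the same factors. WT libraries 3 and 4 had the lowest levels of Gata3, Rora and Tox, the highest of Id2, and 0 and 2 counts of Zbtb16. For every 100 Gata3 counts there were 128 and 74.2 Id2 counts in WT libraries 3 and 4, against 21.5 to 26.8 in the others, a ratio that no scaling touches. Gata3 kept close to Rora in all WT libraries, with 19.3 to 24.3 Gata3 counts for every 100 Rora counts. The sum of the 10 T cell markers was also higher there, at 454 and 507 CPM against 166 to 312 CPM in the other WT libraries. Single markers differed. Trbc2 had 5455 and 6106 counts and Cd3g 2017 and 3077 in WT libraries 3 and 4, their highest. Cd3d, Trac and Cd3e were highest in WT library 2 (175, 276 and 304 counts), and Cd247 in WT library 5 (1188). The 12 macrophage and dendritic markers summed to 2980 CPM in WT library 4 and to 8.25 to 396 CPM in the others. Cd4, Cd8a and Cd8b1 were at 0 in every WT library, as were 5 of the 7 NK and ILC1 markers (Ncr1, Klrb1c, Klrd1, Eomes and Klra8). Of the other NK and ILC1 markers, Prf1 had 197 and 229 counts in WT libraries 3 and 4 and 0 in the other WT libraries, and Gzma had 145 in WT library 2 and 2 in WT library 3. The part of other cells in these differences was not tested.

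Per kilobase of exon, the order of the levels in WT was Rora, Gata3, Ets1, Id2, Tox, Nfil3, Bcl11b, Gfi1 and Zbtb16. The means ran from 136 ± 40.9 CPM per kilobase for Rora to 2.33 ± 3.35 for Zbtb16 (SD, n = 5). Rora was above Gata3 (104 ± 35.6 CPM per kilobase) in 5 of 5 WT libraries, although their ranges overlapped. Gata3, Ets1 (95.9 ± 21.5), Id2 (72.7 ± 32.3) and Tox (58.3 ± 26) were neighbours that did not differ beyond their spread, with each next step in the named order in 2 or 3 of 5 libraries. Among neighbours only Bcl11b (21.6 ± 2.76) and Gfi1 (3.45 ± 2.71) had ranges that did not touch. This order depends on what was counted. Of 690 protein-coding genes that lie wholly inside another gene's span without sharing exon bases, 98.6% were at 0 in every library, against 35.1% of 14131 genes with no exon inside another span. Reads over introns may thus be part of the counts, and per kilobase of whole span the WT means were 53.0 ± 23.6 CPM for Id2, 12.6 ± 4.29 for Gata3 and 2.42 ± 0.729 for Rora.

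Rora and Gata3 took similar shares of the counts of the 9 factors in every WT library, and shares that differed widely between KO libraries. Of their summed counts, Rora made up 40.4 to 47.6% in the WT libraries, and 29.7, 48.4, 83.1, 59.2 and 73.8% in KO libraries 1 to 5. Gata3 made up 8.31 to 11.3% in WT, and 66.7, 9.51, 1.48, 5.2 and 16.5% in KO libraries 1 to 5. KO library 1 held 505 counts of the 9 factors in all, so that its Gata3 share has a 95% Wilson interval of 62.5 to 70.7%, and only Gata3, Rora and Id2 had more than 3 counts there. In KO library 2 the shares of Gata3 and Ets1, 9.51 and 19.0%, lay inside their WT ranges, that of Ets1 being 17.6 to 25%. That of Zbtb16, 0.0327%, did too. The shares of Rora and Bcl11b, 48.4 and 16.8%, were above their WT ranges. Those of Tox, Id2, Nfil3 and Gfi1 were below, at 4.09, 1.04, 1.08 and 0.00654%. Id2 made up 2.40 to 10.6% in WT and 0 to 2.97% in KO. These intervals cover counting error only, since the reads carry no molecular identifiers and may count 1 molecule repeatedly.

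**Figure D2:**
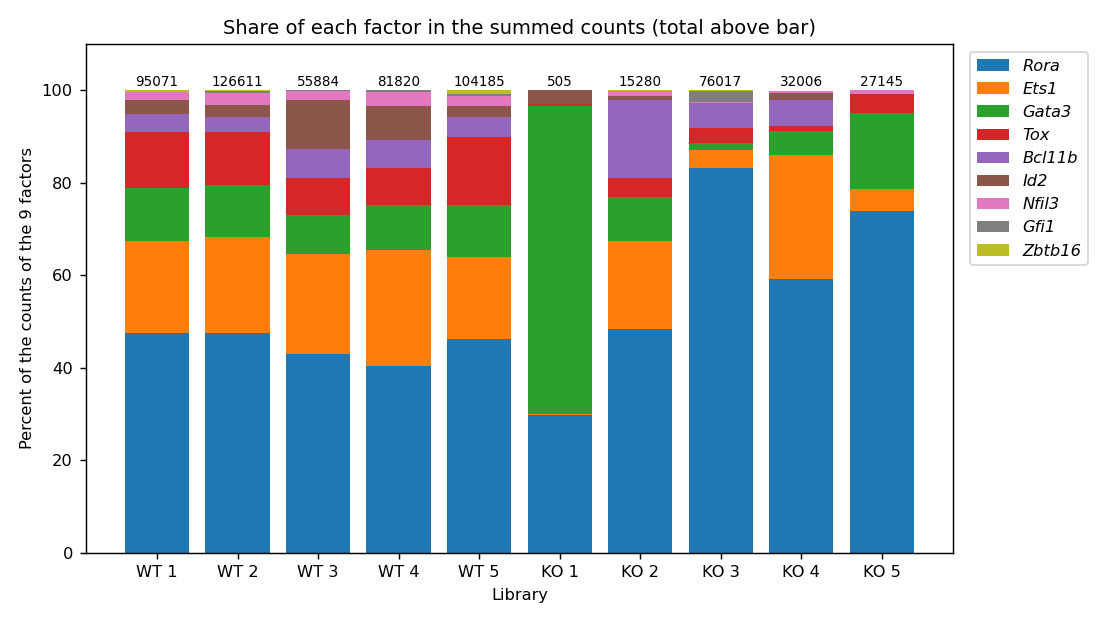
Share of each factor in the summed counts of the 9 factors, in percent, for the 5 WT and 5 c-Maf KO libraries, with the summed count above each bar. Rora takes 40.4 to 47.6% of each WT bar, whereas the KO bars differ, with Gata3 at 66.7% in KO library 1 and Rora at 83.1% in KO library 3.

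The estimates of tested genes differed with genomic span. The median log2 fold change was −1.08 in the quartile of genes with the shortest spans, −1.49 and −0.53 in the middle quartiles and 0.66 in the quartile over 70.2 kb. Lower calls made up 36.1% of the shortest quartile and 12.2% of the longest. Id2, Nfil3 and Gfi1 lie in the shortest quartile, Gata3 in the next to longest, and Rora, Bcl11b, Ets1 and Tox in the longest. Of the 8 factors, Gfi1, whose value rests on KO library 3, Gata3 and Tox had estimates of the opposite sign to the median of their quartile.

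**Figure D3:**
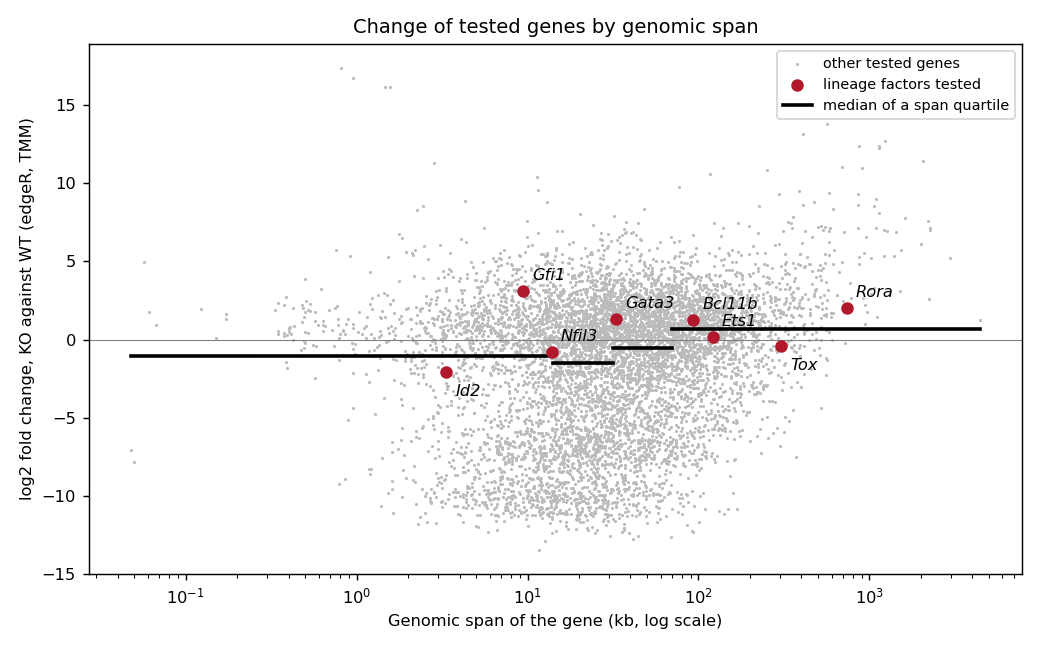
Log2 fold change of KO against WT (edgeR, TMM) for all tested genes with an annotated span, plotted against genomic span in kilobases on a log axis, with the 8 tested factors in red and the median of each span quartile as a black line. The medians are −1.08, −1.49, −0.53 and 0.66 from the shortest to the longest quartile, and Id2 lies at the short end below 0 and Rora at the long end above 0.

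The estimates moved with the scaling and the tool. Between library size alone and RLE size factors, Gata3 went from −0.12 to 2.49 and Id2 from −3.48 to −1.34. The median of the 8 tested factors was −0.57 with library size alone, 1.06 with RLE size factors and −1.80 with voom. The medians of all tested genes in those fits were −1.77, 0.09 and −3.58.

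**Figure D4:**
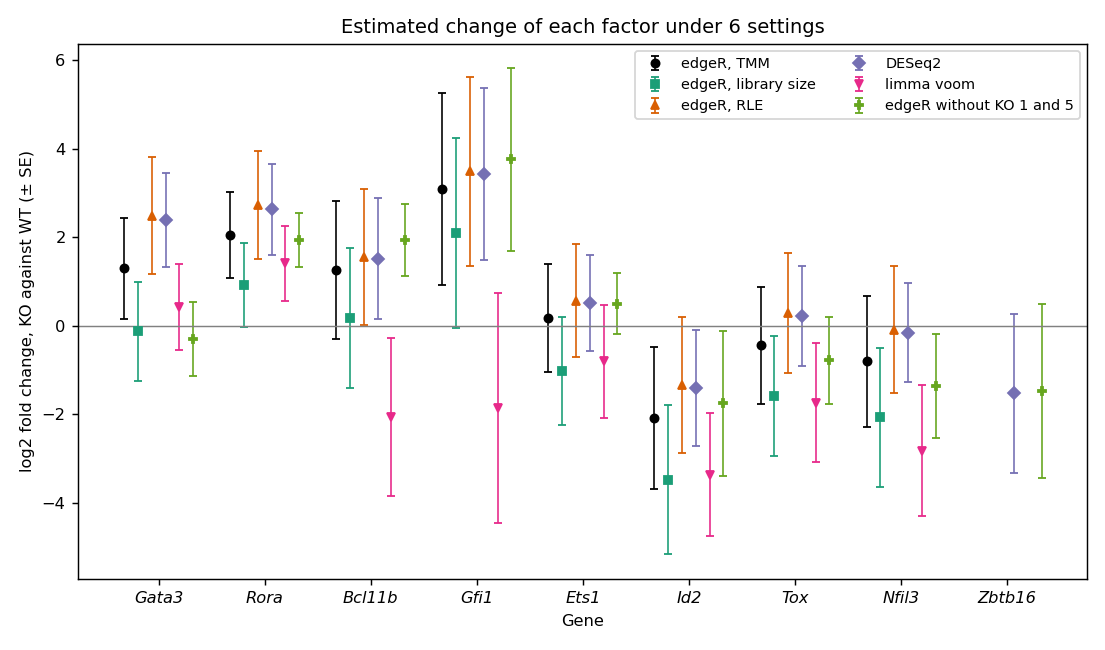
Log2 fold change of KO against WT with its standard error for each factor under 6 settings (edgeR with TMM, library size or RLE, DESeq2, limma voom, and edgeR without KO libraries 1 and 5), with 0 marked by a grey line and Zbtb16 shown where it was tested. The points of Rora lie above 0 and those of Id2 and Nfil3 below 0 under all 6 settings, while Gata3, Bcl11b, Gfi1, Ets1 and Tox have points on both sides.

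Of 23 listed paralogs 12 were tested, 1 was lower, 1 higher and 10 did not pass, beside 27.1% of all tested genes lower and 1.5% higher, with a median log2 fold change of −0.07. Zbtb7b, which encodes ThPOK and is a relative of Zbtb16, fell from 3605 counts over the WT libraries to 2 over the KO libraries (edgeR adjusted p = 0.00163). Erg, an ETS factor like Ets1 and a gene of 227 kb, rose from 12 counts in WT to 436 in KO, with 30 to 210 counts in each KO library (edgeR adjusted p = 0.00163). The next were Zbtb20, with 30469 and 33509 counts (edgeR adjusted p = 0.0505), and Ets2 (0.284). Zbtb20 was higher as well without KO libraries 1 and 5, and both were higher without KO library 1 (edgeR adjusted p = 0.00575 and 0.0476). The other 11 paralogs did not reach the filter. Among them, Rorb, the paralog of Rora, had 5405 counts in KO library 3 and at most 2 in any other library, and Tox3 had 240 there and at most 8 elsewhere. Id3 had 141 counts in WT library 2 and Id1 59 in WT library 4, with 0 elsewhere.

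The cofactors are partners of the factors in chromatin complexes. Of 20 tested, 6 were lower, 0 higher and 14 did not pass, beside 27.1% of all genes lower, and their median was −0.68. Those that fell were the histone deacetylase genes Hdac1, Hdac2 and Hdac3, and Mta1, Mta2 and Mbd3, which encode subunits of the NuRD complex. The other NuRD genes of the list did not pass, with log2 fold changes of 0.99 for Chd4, 0.50 for Gatad2b, −0.45 for Gatad2a, −0.76 for Rbbp7 and −1.28 for Rbbp4. Mbd3 fell from 1557 to 1 count, Hdac3 from 1518 to 1, Hdac2 from 2867 to 3 and Mta1 from 5777 to 6 (edgeR adjusted p = 0.00163, 0.00173, 0.00239 and 0.00473). Mta2 did not pass with RLE size factors, where 24.2% of all genes were lower and 2.58% higher. Of the E proteins that ID2 opposes, 0 of 3 passed with edgeR: Tcf3 had 3971 and 12 counts (adjusted p = 0.0936), Tcf12 18120 and 4804 (0.803), and Tcf4 4334 and 515 (0.833). At an unadjusted p under 0.05 the count was 1, Tcf3, beside 35.5% of all genes. Tcf3 passed as lower with library size alone (31.1% of all genes lower, 0.654% higher) and without KO libraries 1 and 5 (33.4% lower), but not with DESeq2 or voom.

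Of 16 listed factors of progenitors and other lymphoid lineages, 9 were tested, 2 were lower and 7 did not pass, beside 27.1% of all tested genes lower, with a median of −0.54. Besides Zbtb7b, Bcl6, which encodes a repressor that follicular helper T cells need, fell from 5195 to 29 counts (edgeR adjusted p = 0.0225). Lef1 had 4789 counts in WT and 27 in KO, all 27 in KO library 5 (edgeR adjusted p = 0.222). It passed as lower with voom and without KO libraries 1 and 5 (edgeR adjusted p = 0.00851). Over its alternatives that do not leave out a single library the adjusted p ran from 0.00851 to 0.367. Tox2, a relative of Tox, had 6610 and 3658 counts (edgeR adjusted p = 0.437). Eomes and Tbx21, the factors of NK cells and ILC1, were too weak to be tested, as was Tcf7.

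Genes that the factors are known to support in ILC2 were tested in 14 of 16 cases, and 2 were lower, Il4 and Nmur1, while 12 did not pass, beside 27.1% of all tested genes lower and 1.5% higher. Their median was 0.54. The receptor gene Il1rl1, a target of GATA3, was present in each KO library with 660 to 16801 counts (log2 fold change 2.15, SE 0.951, edgeR adjusted p = 0.112). Il1rl1 passed as higher with DESeq2 and without KO library 1 (edgeR adjusted p = 0.0139). Over its alternatives that do not leave out a single library the adjusted p ran from 0.00788 to 0.601. Il13, another target, had 4, 88, 964, 2333 and 1098 counts in KO libraries 1 to 5 (log2 fold change −2.17, SE 1.26, edgeR adjusted p = 0.241). Without KO libraries 1 and 5, 4 members were lower (Il4, Il5, Hpgds and Nmur1) and 1 higher (Il2ra), beside 33.4% and 3.53% of all genes in that fit.

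RORA and NFIL3 also act on the circadian clock, RORA as an activator of Arntl and NFIL3 as a repressor at the sites that DBP binds. Of 18 clock genes 12 were tested, 1 was lower and 11 did not pass, beside 27.1% of all tested genes lower and 1.5% higher, with a median of 0.44. Csnk1e, a kinase of the PER proteins, fell from 809 counts in WT to 0 in KO (edgeR adjusted p = 0.00166). Arntl had 23, 7246, 31, 5425 and 678 counts in KO libraries 1 to 5 and 20793 over WT (log2 fold change 2.04, SE 1.42, edgeR adjusted p = 0.339). Its highest KO counts were in KO libraries 2 and 4 and those of Rora in KO libraries 3 and 5, before any scaling for depth. A link between Rora and Arntl was not tested. Npas2 was counted 2440 times in KO, 2436 of them in KO library 3 (edgeR adjusted p = 0.121), and Tef 274 times, all in KO library 5 (0.378). With KO libraries 1 and 5 left out, 3 of 14 tested clock genes were lower, Tef, Per2 and Csnk1e, beside 33.4% of all genes.

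The genes whose levels ran most like those of Gata3 and Rora were found by Pearson correlation of log2(CPM + 1), TMM-scaled, over the 10 libraries among 6821 genes. For Gata3 they were Ulk4 (r = 0.957, Spearman rho = 0.855), Rundc3b (0.933 and 0.770) and Pappa (0.933 and 0.701), each with its highest count in KO library 5. Pappa had 243 counts there and 0 in every WT library, and Ulk4 had 1364 there and 3 to 484 in WT. Their likeness to Gata3 thus rests largely on KO library 5. For Rora they were Aldoa (0.966 and 0.879), Svil (0.962 and 0.964) and Atrnl1 (0.961 and 0.733), which had few or no counts in KO library 1. Among the factors, Rora ran most with Tox (r = 0.677) and Ets1 (r = 0.660), and Gata3 ran against Bcl11b (r = −0.725). In KO library 1, which had 0 counts of Bcl11b, Gata3 stood at 396 CPM with TMM scaling. Per library total it was at 70.8 CPM there, the lowest of the 10 libraries. In KO library 5 Gata3 and Bcl11b were at 1970 and 1.75 CPM, TMM-scaled. The value of −0.725 thus depends on the scaling and on few libraries. Gata3 and Rora had r = 0.312. The libraries share depth and scaling, so these values describe the 10 libraries only.

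Markers of the sorted cells were counted in both groups, but not each of them in each KO library. The 7 ILC2 markers summed to 4090 to 6060 CPM in WT and 646 to 14700 CPM in KO, with 6 or 7 of the 7 above 3 counts in each KO library. Klrg1 had 1 and 2 counts in KO libraries 1 and 3, and Ptprc and Thy1 had 5 and 8 in KO library 1. Their lowest WT counts were 4990, 17561 and 13252. The highest KO sum, in KO library 2, included 89243 counts of Thy1. Erythroid markers summed to 9.1 to 25 CPM in WT and to 120 to 190000 CPM in KO, highest in KO library 1, where 3 of the 9 factors had more than 3 counts. T cell markers summed to 166 to 507 CPM in WT and 7.99 to 123 CPM in KO, and macrophage and dendritic markers to 8.25 to 2980 and 0.22 to 6.73 CPM. B cell markers summed to 25 to 172 CPM in WT and 0.11 to 209 CPM in KO, highest in KO library 4, with Ms4a1 and Igkc at 0 throughout. NK and ILC1 markers summed to at most 9.49 CPM in WT and were at 0 in KO. Granulocyte and mast cell markers reached 17.7 and 13 CPM, and epithelial, endothelial and stromal markers 174 and 24.4 CPM. The part of these cells in the levels of the factors was not tested.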

How the data were processed

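Total RNA of sorted lung ILC2 was made into strand-specific libraries, per the labels' protocols. The deposited values are read counts per gene, not normalized, 1 column per library. The submitters' processing notes name STAR 2.6.0c, SAMtools 1.8, HTSeq 0.9.1 and GRCm38; for the annotation release and strand setting, nothing is given in the sources used here. Positions, spans and exon lengths are from GENCODE M21 (GRCm38), which held 54809 of the 54838 identifiers.

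Genes were kept by filterByExpr (minimum of 10 counts), scaled by TMM and tested with the quasi-likelihood test of edgeR 4.0.16 (R 4.3.3), KO against WT over all 10 libraries, with Benjamini-Hochberg adjustment over 7490 genes at 0.05. The standard error is the log2 fold change divided by the square root of F. Alternatives were other scalings and filters, DESeq2 1.42.0, voom (limma 3.58.1), a robust fit, leaving out globin, mitochondrial and ribosomal RNA genes, an exact permutation test for each gene, leaving out each library, and leaving out KO libraries 1 and 5. For the lists the last was added after seeing the data. Nothing in the labels sets KO libraries 1 and 5 apart. They had the fewest counts, 4757345 and 3620002, so leaving them out rests on the data for the factors too. Named were all 9 factors, Maf, up to 4 tested genes of each list with the smallest p, and the 3 genes most correlated with Gata3 and with Rora among those of mean CPM of at least 5; other genes named were chosen after their values were seen. Libraries were numbered in order of deposit, which pairs nothing. The members and lists were chosen with earlier results of these data known. A gene was called missing at 3 counts or fewer, and a count of 0 allows up to 3. The edgeR procedure was also run on simulated counts drawn from the mean WT profile. Their spread was set by hand and not taken from these data, so that run cannot speak for the sparse KO libraries.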

Additional observations from a re-analysis of the deposited data

Results flagged for a closer look

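In 4 of 18 groups of 5 libraries checked among the 9 factors, 1 library stood far from the other 4 on the TMM scale. The cut flags about 1 in 20 groups when values are normally distributed. These unlogged KO levels are skewed and hold zeros, so that rate is no yardstick here. The share of all genes flagged in this way was not computed. All were KO groups and the highest library. Gata3 stood at 1970 CPM in KO library 5, and its gap to the next library was 0.866 of the range. Nfil3 stood at 86.7 CPM in KO library 5 (0.715 of the range). Gfi1 stood at 256 CPM in KO library 3 (0.998 of the range). Zbtb16 stood at 6.71 CPM in KO library 3 (0.888 of the range), which is 49 counts.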

How the results depend on the processing

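No paired analysis was possible because the labels give no replicate number that WT and KO libraries share. Of the 8 tested factors, Rora, Id2 and Nfil3 kept their sign under all 20 alternatives. Gata3 turned to −0.12 with library size alone and −0.30 without KO libraries 1 and 5; Ets1 to −1.03 with library size alone, −0.80 with voom, −1.26 in the permutation test and −0.17 without a filter; Bcl11b to −2.06 and −1.24 and Gfi1 to −1.86 and −0.70 with voom and the permutation test; Tox to 0.29 with RLE size factors and 0.21 with DESeq2. Rora passed with DESeq2 (2.63) and without KO libraries 1 and 5 (1.94), and Id2 in the permutation test (−2.94, the difference of mean log2 levels). The causes were not tested. Leaving out single libraries gave 0.34 to 1.96 for Gata3, 1.61 to 2.52 for Rora, 0.64 to 1.57 for Bcl11b, −5.19 to 3.46 for Gfi1, −0.23 to 0.56 for Ets1, −2.79 to −1.65 for Id2, −1.12 to 0.09 for Tox and −1.73 to −0.25 for Nfil3. Over all genes 2027 were lower and 112 higher. Higher calls were 193 with RLE size factors, 49 with library size alone, 1512 with DESeq2 (2611 lower), 71 with voom, 73 in the permutation test, 2345 without a filter (3024 lower), 61 with a minimum of 30 counts and 348 without KO libraries 1 and 5 (3291 lower). Leaving out single libraries gave 1734 to 3350 lower and 82 to 333 higher calls. Depth sets a floor: 3 counts amount to 0.304 to 0.829 CPM in a KO library.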
